A study of Mus musculus with 10 samples.

Results

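The entries numbered miR-6896 to miR-7094 are a run of mouse miRNA names. The 108 of their hairpins that were placed here all lie in introns of protein-coding genes, and the others were not placed. The members described here are the entries of the deposited count table in that run of numbers, of either arm, and a summed raw count of at least 3 over the 10 libraries. They are 165 entries, out of 403 entries with these numbers and 1907 entries in the whole table. They were chosen by their summed count, which is given here as a description. Of the other entries with these numbers, 133 had no count, 59 had 1 count and 46 had 2 counts, just outside the limit, and 27 members had 3 counts, just inside it. A rule on raw sums weighs the libraries by their depth, and those of WT were the deepest.

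Small RNA was sequenced from mouse embryonic stem cells of the E14 line (129/Ola), grown in serum and LIF on gelatine, in 5 groups of 2 libraries. WT is the wild type, at passages 25 and 33. Dgcr8_KO and Drosha_KO are knockouts of Dgcr8 and of Drosha, Dicer_KO is a knockout of Dicer sampled as 2 clones, and Ago12_KO is the double knockout of Ago1 and Ago2. How the alleles were made is not given in the sources used here, and Ago12_KO cells are not labelled as lacking other Argonaute genes. Apart from the WT passages and the Dicer_KO clones, the labels do not tie the replicates to separate cultures. The p-values therefore cover the spread within these pairs of libraries alone, and that spread may be technical.

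Most miRNAs are made in steps. The Microprocessor, in which Dgcr8 binds the RNA and Drosha cuts it, frees a hairpin from a long transcript, Dicer cuts the loop off, and an Argonaute protein keeps 1 strand of the duplex, which finds targets mainly through its seed, bases 2 to 8. A mirtron skips the Microprocessor: the splicing machinery cuts out a short intron, which is opened and folds into a hairpin that Dicer can cut. In a tailed mirtron only 1 end of the hairpin is a splice site and the rest of the intron is trimmed away. A 3p strand that ends at a 3' splice site ends in AG and carries the pyrimidine-rich stretch that precedes that site.

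RefSeq mature sequences (GRCm38.p6) were found for 149 of the 165 members. The set below shows strands that the results turn on, picked after their values were seen: the 6 members with the most counts, miR-7018-3p because it shares a seed with miR-7068-3p, and miR-6992-5p and miR-7054-3p for their counts in Dicer_KO and Ago12_KO. Each is given 5′ to 3′ with the seed in capitals.
miR-6944-3p: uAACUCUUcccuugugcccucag
miR-7068-3p: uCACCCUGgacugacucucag
miR-7018-3p: uCACCCUGcugccggcuugcag
miR-7079-3p: uGACUUCUguucucuuuccag
miR-7046-3p: uGAACCACccaucccccuacag
miR-7070-3p: cAGGCUCUccuucccuccag
miR-7003-3p: cCCCGGGUuuuccccacag
miR-6992-5p: uGCCUGUGaugguuuggcugagu
miR-7054-3p: uCCAACUUggccccuuccag

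All of these 3p strands end in AG. miR-7068-3p and miR-7018-3p share the seed CACCCUG, so they differ only after it. The hairpins of the 2 most abundant members and of miR-7003 follow, with the counted strand in capitals at the 3' end, because their ends show how they sit in the intron.
miR-6944: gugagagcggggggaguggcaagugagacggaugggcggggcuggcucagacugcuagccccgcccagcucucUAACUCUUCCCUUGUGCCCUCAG
miR-7068: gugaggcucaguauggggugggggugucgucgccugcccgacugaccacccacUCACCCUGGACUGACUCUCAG
miR-7003: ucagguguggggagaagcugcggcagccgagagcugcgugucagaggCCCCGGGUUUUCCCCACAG

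The first and the second of these begin with GU and end with AG, the letters of the 2 splice sites, and each hairpin is a whole intron of GENCODE M21 on GRCm38. miR-6944 lies at chr13:55477681-55477776 on the minus strand and fills a 96-base intron of Dbn1, which encodes the actin-binding protein drebrin. miR-7068 lies at chr8:72470016-72470089 on the minus strand and fills a 74-base intron of Cherp. miR-7018 lies at chr4:137538286-137538370 on the plus strand and fills an 85-base intron of Hspg2, which encodes perlecan. miR-7046 (chr7:24970010-24970075, minus strand) ends at the 3' splice site of a 77-base intron of Rabac1. miR-7079 (chr8:123104975-123105043, plus strand) ends at the 3' splice site of a 1089-base intron of Rpl13, a ribosomal protein gene, and miR-7003 (chr2:163068090-163068155, plus strand) at that of a 3655-base intron of Mybl2, a transcription factor gene of the cell cycle. For miR-7070-3p only the mature strand was placed, in an 86-base intron of Fbxw9 on chromosome 8.

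The name of mirtron type was checked against the annotation of the 108 hairpins that could be placed. All 108 lay in an intron of a protein-coding gene on the same strand, and 98 of them (90.7%) ended exactly at the 3' end of that intron. In 8 hairpins both ends lay within 5 bases of the splice sites, in introns of 67 to 96 bases. The shape with only the 3' end at a splice site, that of a tailed mirtron, was held by 90 hairpins in introns with a median of 502 bases. A further 3 hairpins had only the 5' end there and 7 had neither. The data go against a short intron as the common feature: 33 of 108 hairpins (30.6%) lay in introns of no more than 150 bases, and the median was 433 bases (range 66 to 36269). Where transcripts gave several introns, the shortest coding one was used, so these lengths are lower limits. A set of 20 hairpins also overlapped an exon of another transcript on the same strand, and their counts are uncertain in origin.

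**Figure D1:**
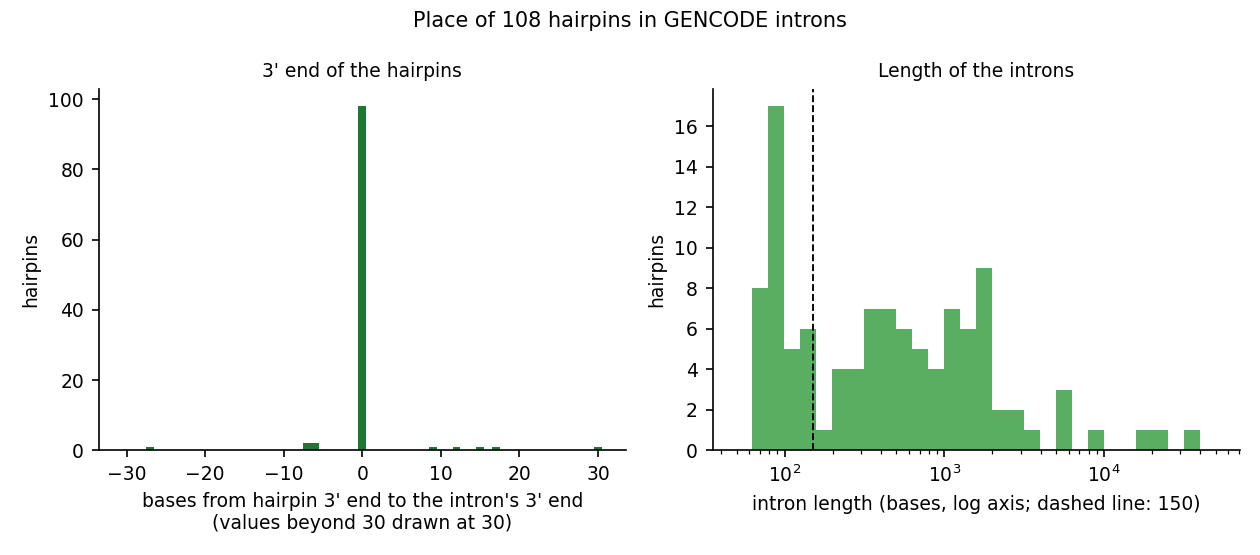
The left plot counts the 108 placed hairpins by the distance in bases from the hairpin's 3' end to the 3' end of its intron, and the right plot counts them by intron length on a log axis, with a dashed line at 150 bases. A total of 98 hairpins stand at a distance of 0, while 33 lie in introns of no more than 150 bases.

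The strands carried the same mark. Of 86 matched 3p members, 65 ended exactly at the 3' splice site, 67 (77.9%) ended in AG and 59 (68.6%) in CAG. Among the 532 RefSeq 3p sequences with other numbers, 10.9% and 5.45% did so. Those others were taken whether or not they had counts in these libraries, unlike the members. The median content of C and U of the 3p members was 71.4%, against 54.5% in those others, and 59.3% began with U, against 38.0%. Of 63 matched 5p members, 7 began at the 5' splice site. The median content of C and U of the 63 was 33.3%, against 50% in 519 RefSeq 5p sequences with other numbers, taken in the same way. These are descriptions of annotated sequences, with no test. For a 3p strand placed at a 3' splice site, an AG end and many pyrimidines follow from that place. They are therefore no second check of the mirtron type.

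The library totals ran from 37476 to 2357868 counts, with the lowest in Drosha_KO and Dicer_KO, where 1 count is worth 22.1 to 26.7 CPM (counts per 1000000 counts of the library). The floor of 3 counts over both libraries of a group was 0.697 CPM for WT, 4.30 CPM for Dgcr8_KO and 5.18 CPM for Ago12_KO, but 37.6 CPM for Drosha_KO and 36.3 CPM for Dicer_KO. Intervals and floors cover counting error only. Totals are of miRNA entries alone, so every level here is a share of the miRNA counts and says nothing of amounts per cell, and fewer cells and less RNA per cell cannot be told apart. The 9 embryonic stem cell miRNAs used as markers took 13.8% to 14.9% of the counts in WT, 10.5% to 10.7% in Dgcr8_KO, 13.0% to 13.8% in Drosha_KO, 6.48% to 7.29% in Ago12_KO and 1.03% to 1.17% in Dicer_KO, and 2 of the 9 were at 0 in each of Drosha_KO and Dicer_KO. The 5 blood miRNAs took 0.0300% to 0.0687% in WT, 0.417% to 0.425% in Dgcr8_KO, 0.156% to 0.311% in Drosha_KO, 0.0133% to 0.0221% in Dicer_KO and 0.618% to 0.657% in Ago12_KO, so this list was also higher in both Microprocessor knockouts than in WT. Of these 5, 1 was at 0 in WT and in Dgcr8_KO and 3 were at 0 in each other group. Lists for fibroblasts, neural cells, muscle and liver took at most 0.623% in any library. The part of these markers in the members' values was not tested. Dgcr8_KO and Ago12_KO carry date-like codes in the labels and the other groups do not, so a run or batch and the group cannot be told apart.

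The 165 members together took a small part of the WT counts and a larger part in both Microprocessor knockouts. Their summed share was 0.0655% and 0.0820% in the WT libraries, 0.541% and 0.533% in Dgcr8_KO, and 0.628% and 0.598% in Drosha_KO. The Dicer_KO libraries had 0.0885% and 0.0587%, and the Ago12_KO libraries 0.00830% and 0.0166%. Dgcr8_KO and Drosha_KO lay above WT without overlap, Ago12_KO lay below it, and the 2 Dicer_KO libraries lay on either side of the WT pair. The WT mean was 0.0737% ± 0.0117, that of Dgcr8_KO 0.537% ± 0.00499 and that of Drosha_KO 0.613% ± 0.0210 (SD, n = 2). Dicer_KO had a mean of 0.0736% ± 0.0210 and Ago12_KO one of 0.0124% ± 0.00584 (SD, n = 2). That is 7.28-fold the WT share in Dgcr8_KO, 8.31-fold in Drosha_KO and 5.93-fold below it in Ago12_KO. The raw member counts were 1544 and 1594 for WT, 1565 and 2180 for Dgcr8_KO and 248 and 241 for Drosha_KO. Dicer_KO had 40 and 22 and Ago12_KO had 29 and 38, so the larger shares of Dgcr8_KO and Drosha_KO stood over smaller totals.

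**Figure D2:**
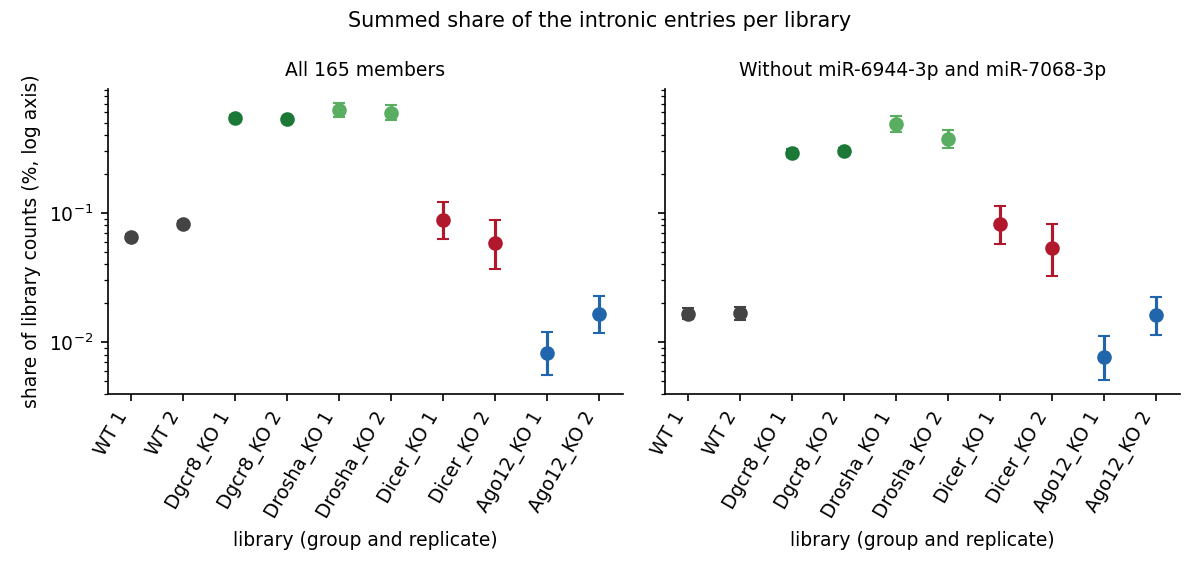
Each point is the summed share of the intronic entries in 1 library, in percent on a log axis, with its 95% exact binomial interval, for all 165 members (left) and without miR-6944-3p and miR-7068-3p (right). On the right the WT libraries stand at 0.0166% and 0.0167%, and those of Dgcr8_KO and Drosha_KO between 0.290% and 0.491%.

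A pair of members decided much of the WT share. miR-6944-3p held 37.9% of the 7501 member counts, and with miR-7068-3p 56.6%. The pair made up 77.2% of the WT member counts, 44.6% of those of Dgcr8_KO and 29.4% of those of Drosha_KO, but 8.06% for Dicer_KO and 4.48% for Ago12_KO. Without it, the share of the other 163 members was 0.0167% ± 0.0000965 in WT and 0.0119% ± 0.00594 in Ago12_KO (SD, n = 2). It was 0.296% ± 0.00838 for Dgcr8_KO, 0.433% ± 0.0823 for Drosha_KO and 0.0676% ± 0.0201 for Dicer_KO (SD, n = 2). The folds over WT were then 17.8 in Dgcr8_KO, 26.0 in Drosha_KO and 4.06 in Dicer_KO. The Dicer_KO fold fell to 2.24 when miR-7003-3p was left out as well, with 0.0553% and 0.0187% in the Dicer_KO libraries. With miR-7003-3p kept, the Ago12_KO share was 0.716 times that of WT. The pair was left out for its summed count, to which WT gave the most counts. The larger folds without it are thus in part set by that choice. The fall in Ago12_KO lay mostly in the pair.

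Single members were rare. The median summed count was 8, 91 members had fewer than 10 counts and 31 had at least 30. At least 1 count was seen for 125 members in WT, 157 in Dgcr8_KO and 99 in Drosha_KO, and for 19 members of Dicer_KO and 32 of Ago12_KO. These groups differ in their totals. The 134 members with a summed count of 3 to 29, pooled, took 0.00573% ± 0.000188 of the WT counts, 0.106% ± 0.00992 of those of Dgcr8_KO and 0.173% ± 0.0414 of those of Drosha_KO (SD, n = 2). For Dicer_KO this was 0.0170% ± 0.0166 and for Ago12_KO 0.00325% ± 0.000952 (SD, n = 2). The rare members thus stood 18.5-fold over WT in Dgcr8_KO and 30.2-fold in Drosha_KO. A cap on raw sums leaves out members high in WT, the deepest group, so these folds are in part set by the choice. In Dicer_KO they stood 2.97-fold over WT, from 15 counts. The Dicer_KO libraries had 0.0287% and 0.00534%, on either side of the WT pair, so neither a rise nor a fall is shown.

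The comparison of Dgcr8_KO with WT addresses which entries still arise without the Microprocessor. Both Dgcr8_KO libraries exceeded both WT libraries in 121 of 165 members, where 34.2% of the 993 entries of the table with at least 3 counts did so. The reverse held for 4 members, where 45.7% of the 993 entries were lower. The 121 come close to a count of members detected, as 122 had a count in both Dgcr8_KO libraries. There 1 count was worth 3.45 and 2.45 CPM, against 0.424 and 0.514 CPM in WT. How many of the 993 entries had a count in both was not computed, so nothing is read from the 121. The fit with edgeR's quasi-likelihood test, over all 5 groups, took entries that reached 38.54 CPM in at least 2 libraries. Only 32 members entered it. Of these, 2 reached that limit in both WT libraries and 30 in neither. Those 30 passed through a group where they were high, so the counts of calls and the median of the 32 are no support. At an adjusted p under 0.05 (Benjamini-Hochberg over the 481 entries tested), 31 of the 32 were higher in Dgcr8_KO and none lower. Of all entries, 32.4% were higher and 41% lower, 73.4% in either direction. The median log2 fold change was 4.08 over the 32 and -0.41 over all 481. Without the filter on low counts, 97 of 165 members were called higher and none lower, beside 20.5% of 1262 entries higher. The 1262 include entries with summed counts under the members' limit of 3, so the 2 shares are not alike.

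miR-6944-3p, the most abundant member, had 384 and 505 CPM in WT (906 and 982 counts) and 1392 and 1241 CPM in Dgcr8_KO (403 and 507 counts). In Drosha_KO it had 304 and 794 CPM (12 and 32 counts), a range that holds both WT values. It had no count in either library of Dicer_KO or Ago12_KO. Relative to WT it rose by 1.56 on the log2 scale in Dgcr8_KO (SE 0.39, edgeR adjusted p = 0.00539), and the difference was 0.31 in Drosha_KO (SE 0.44, edgeR adjusted p = 0.565). The Dgcr8_KO call was lost without WT replicate 1, where the edgeR adjusted p was 0.0581. By mean CPM it ranked 130 of all entries in WT, 60 in Dgcr8_KO and 97 in Drosha_KO.

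miR-7068-3p, the other whole intron with many counts, had 105 and 148 CPM in WT (247 and 287 counts). It reached 1112 and 1074 CPM in Dgcr8_KO (322 and 439 counts) and 1063 and 1439 CPM in Drosha_KO (42 and 58 counts). It had 66.3 and 53.4 CPM in Dicer_KO, from 3 and 2 counts, and 5.73 and 4.36 CPM in Ago12_KO, from 2 and 1 counts. Every library of the Microprocessor knockouts stood above both WT libraries, and every Dicer_KO and Ago12_KO library below them. It rose by 3.11 on the log2 scale in Dgcr8_KO (SE 0.31, edgeR adjusted p = 8.7e-06) and by 3.31 in Drosha_KO (SE 0.32, edgeR adjusted p = 7.71e-06). miR-6944-3p and miR-7068-3p thus had different fold changes, and that difference was not tested. miR-7018-3p, with the same seed as miR-7068-3p, had 4.24 and 2.57 CPM in WT, 89.8 and 97.9 in Dgcr8_KO and 152 and 248 in Drosha_KO, with no overlap, and at most 1 count in the libraries of the other groups. It rose by 4.68 in Dgcr8_KO (SE 0.51, edgeR adjusted p = 2.39e-05) and by 5.77 in Drosha_KO (SE 0.64, edgeR adjusted p = 3.1e-05). As miR-7018-3p reached the fit's limit of 38.54 CPM in those knockouts and in no WT library, its p-values are no support.

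**Figure D3:**
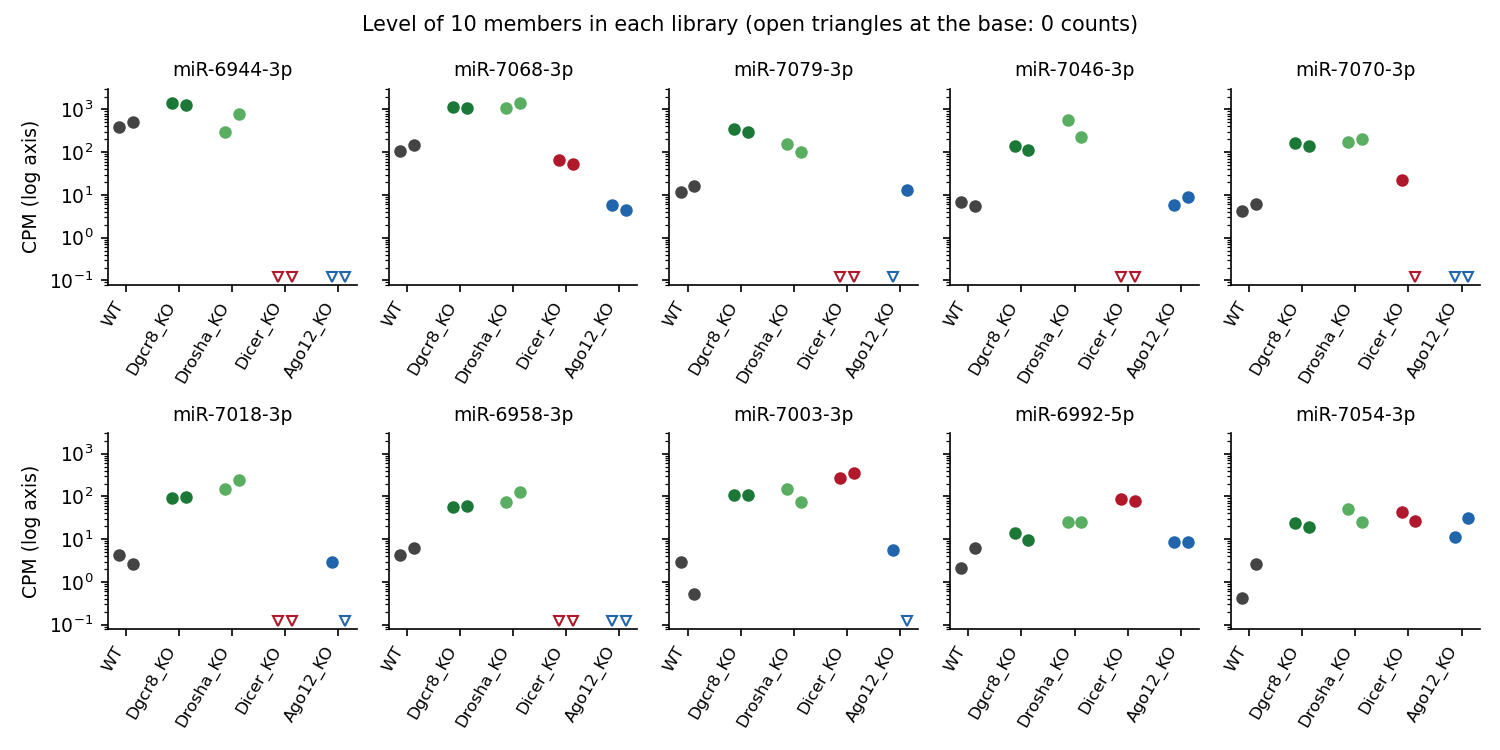
Each panel shows 1 of 10 members, with 1 point per library at its CPM on a log axis and open triangles at the base for libraries with 0 counts. miR-6944-3p has triangles in all 4 libraries of Dicer_KO and Ago12_KO, and miR-7003-3p is highest in Dicer_KO, at 265 and 347 CPM.

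miR-7079-3p and miR-7046-3p, whose hairpins meet only the 3' splice site, also stood higher in both Microprocessor knockouts. Both reached the fit's limit of 38.54 CPM in those knockouts and in no WT library, so their p-values are no support. miR-7079-3p, from the Rpl13 intron, had 11.9 and 15.9 CPM in WT, 342 and 289 in Dgcr8_KO and 152 and 99.2 in Drosha_KO. Its log2 fold change was 4.49 in Dgcr8_KO (SE 0.50, edgeR adjusted p = 2.86e-05) and 3.16 in Drosha_KO (SE 0.77, edgeR adjusted p = 0.00535). miR-7046-3p, from the Rabac1 intron, had 6.79 and 5.66 CPM in WT, 142 and 113 in Dgcr8_KO, and 557 and 223 in Drosha_KO. It rose by 4.29 in Dgcr8_KO (SE 0.49, edgeR adjusted p = 3.3e-05) and by 5.91 in Drosha_KO (SE 0.56, edgeR adjusted p = 1.15e-05). For both entries the knockout libraries lay above both WT libraries, and neither had a count in Dicer_KO. miR-7070-3p, whose hairpin was not placed, had 4.24 and 6.17 CPM in WT, 162 and 137 in Dgcr8_KO, and 177 and 198 in Drosha_KO, again without overlap, and 1 count in Dicer_KO. The only tested member not called in Dgcr8_KO was miR-6992-5p, from an intron of Stx5a, which encodes the Golgi SNARE protein syntaxin 5. It had 2.12 and 6.17 CPM in WT and 13.8 and 9.79 CPM in Dgcr8_KO (edgeR adjusted p = 0.0653).

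In Drosha_KO both libraries exceeded both WT libraries in 49 of 165 members, beside 19.1% of the 993 entries, and were lower in 20, beside 52.9%. All 20 had no count in Drosha_KO and a WT mean under the Drosha_KO floor, so this count shows no fall at this depth. The 49 come close to a count of members detected, as 50 had a count in both Drosha_KO libraries. With 1 count worth 25.3 and 24.8 CPM there, nothing is read from the 49 either. In the fit 26 of the 32 tested members were higher and none lower, beside 26.2% of the 481 entries higher. The medians were 4.78 for the 32 members and -0.87 for all entries. Of the 32, 30 reached the limit of the fit in no WT library and entered through a group where they were high. The calls and the median of the 32 are therefore no support. With entries that had no count in 1 group set at the bound of 3 counts where that gave a fold, the medians were 4.80 and -0.35. These leave out 1 of the 32 members and 41 of the 481 entries, which gave no fold. The medians are thus not over the same entries as those before. Without the filter, 56 of 165 members were called higher, beside 13.9% of 1262 entries, which include some with summed counts under the members' limit of 3. The 6 not called were miR-6944-3p, miR-6911-3p, miR-6943-3p, miR-6989-3p, miR-6992-5p and miR-6967-5p, the last with no count in Drosha_KO. The Drosha_KO libraries held 39511 and 40306 counts, so a member with no count there may still have stood at up to the floor of 37.6 CPM. The comparisons of the 4 knockouts with WT use the same WT libraries.

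A further 20 tested members, 14 3p and 6 5p strands, were low in WT, with mean levels from 0.514 CPM (miR-6979-3p) to 8.42 CPM (miR-6967-3p). In Dgcr8_KO their means ran from 18.9 to 85.9 CPM, and in Drosha_KO from 12.4 to 201 CPM, the highest being that of miR-7083-3p from an intron of Dock6. They are miR-6896-5p, miR-6911-3p, miR-6948-3p, miR-6952-3p, miR-6958-3p, miR-6960-5p, miR-6963-3p, miR-6967-3p, miR-6979-3p, miR-6988-3p, miR-6989-3p, miR-6994-5p, miR-6997-5p, miR-7035-3p, miR-7053-3p, miR-7059-5p, miR-7075-3p, miR-7082-3p, miR-7083-3p and miR-7083-5p. In Dgcr8_KO all 20 lay above both WT libraries, beside 34.2% of the 993 entries, and were called, beside 32.4% of the 481. In Drosha_KO 17 lay above them, beside 19.1%, and 18 were called, beside 26.2%. These members entered the fit through those groups, so nothing is read from these counts. In Dicer_KO 18 of them had no count, and in Ago12_KO 10 had none. miR-7015-3p and miR-7006-3p, which also had at least 30 counts, did not enter the fit. miR-7015-3p had 13 and 6 counts in WT and 12 and 10 in Dgcr8_KO, and miR-7006-3p had 9 and 4 in WT and 3 and 14 in Dgcr8_KO.

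**Figure D4:**
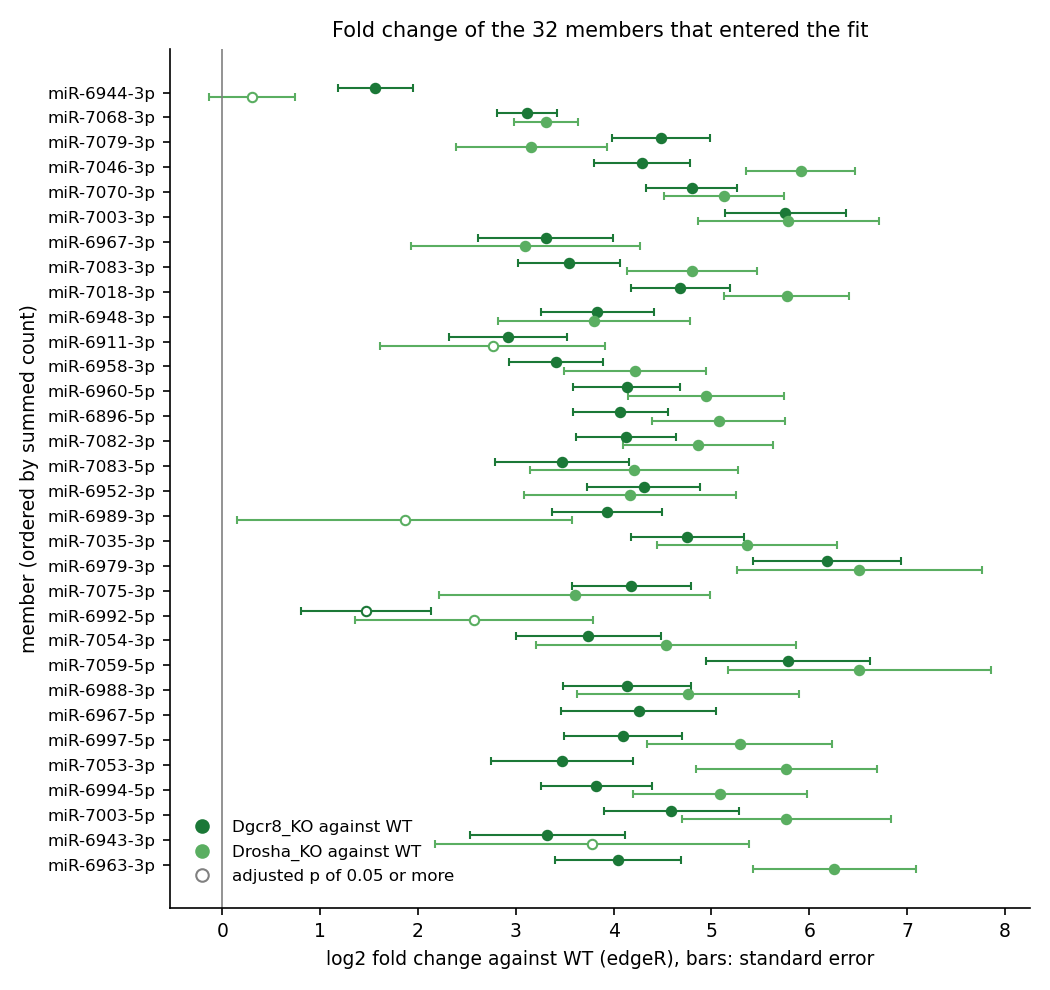
Points give the log2 fold change of the 32 tested members in Dgcr8_KO (dark) and Drosha_KO (light) against WT, with the standard error as bars, and open points have an adjusted p of 0.05 or more. All drawn values lie above 0, from 0.31 for miR-6944-3p in Drosha_KO upward, and miR-6967-5p, with no count in Drosha_KO, is drawn for Dgcr8_KO alone. Of the 32, 30 reached the limit of the fit in no WT library and entered through a group where they were high.

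The members can also be sorted by their place in the intron. The whole-intron hairpins held 14 members, which took 0.0585% ± 0.0115 of the counts in WT, 0.267% ± 0.0121 in Dgcr8_KO and 0.221% ± 0.0695 in Drosha_KO (SD, n = 2). Without miR-6944-3p and miR-7068-3p the other 12 took 0.00146% ± 0.0000975 in WT, 0.0265% ± 0.00131 in Dgcr8_KO and 0.0413% ± 0.00828 in Drosha_KO, or 18.2-fold and 28.3-fold the WT share. The 120 members of hairpins with only the 3' end at a splice site took 0.0121% ± 0.000221 in WT, 0.213% ± 0.000345 in Dgcr8_KO and 0.313% ± 0.0877 in Drosha_KO, 17.5-fold and 25.7-fold the WT share. In introns above 150 bases the 103 members stood at 17.3-fold and 26.2-fold, and the 44 in shorter introns without the pair at 18.4-fold and 24.95-fold. The folds without the pair are in part set by leaving it out. In the other groups these classes parted. The whole-intron members had 0.0504% and 0.0667% in WT, 0.00663% and 0.00534% in Dicer_KO (5 counts) and 0.00115% and 0.000436% in Ago12_KO (5 counts). Members with only the 3' end at a splice site had 0.0123% and 0.0120% in WT and 0.0708% and 0.0534% in Dicer_KO (52 counts, 25 of miR-7003-3p). In Ago12_KO they had 0.00601% and 0.0153%, on either side of the WT pair. No test of these differences was made.

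Entries known from earlier work to bypass the Microprocessor give a scale for these folds. The list of conserved mirtrons (miR-877, miR-702, miR-1224 and miR-1981, 8 entries) took 0.0521% of the counts in WT, 0.852% in Dgcr8_KO and 1.86% in Drosha_KO, 16.4-fold and 35.7-fold the WT share. The list of hairpins made directly by transcription and capping (miR-320, miR-484 and miR-344, 5 entries) stood 16.7-fold and 27.8-fold above WT. The 14 entries named for the miR-17-92 cluster, which need the Microprocessor, fell from 16.4% of the counts in WT to 1.71% in Dgcr8_KO and 1.01% in Drosha_KO. They were taken by name, so counts from loci outside the cluster with the same names may be among them. In Dicer_KO the mirtrons took 0.00621%, the capped hairpins 0.0333% and the entries named for the cluster 0.733%, all below WT. The 165 members had a mean at the WT level there, but their 2 Dicer_KO libraries lay on either side of the WT pair. Of their 62 counts in Dicer_KO, 25 were of miR-7003-3p. Without it they held 37 counts, where 60.8 would stand at their WT share. In Ago12_KO the mirtrons took 0.0135%, 3.85-fold below WT, and the capped hairpins 0.138%, near their WT share of 0.147%. The lists were chosen with results of these data known, and the sets were not tested against each other.

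The comparison of Dicer_KO with the Microprocessor knockouts addresses which members need Dicer. At the mean share of Dgcr8_KO the 2 Dicer_KO libraries, with 82698 counts, would hold 444 member counts, and they held 62. Both Dicer_KO libraries lay below both Dgcr8_KO libraries in 112 of 165 members, beside 44% of 993 entries, and below both Drosha_KO libraries in 47, beside 22.6%. Depth limits these counts: 109 of the 112 had no count in Dicer_KO, and for 92 of them the Dgcr8_KO mean was under the Dicer_KO floor of 36.3 CPM. Of the 22 members whose Dgcr8_KO mean reached that floor, 20 were lower. Against Drosha_KO 42 of the 47 had no count in Dicer_KO, and of the 46 members that reached the floor in Drosha_KO 40 were lower. Members taken for reaching the floor were high in the group compared, and the same share over all entries was not computed. Nothing is read from the counts of members at the floor. The fit called 15 of 32 members lower and 2 higher in Dicer_KO than in Dgcr8_KO, beside 31.2% and 15.8% of the 481 entries. Against Drosha_KO it called 16 lower and none higher, beside 30.4% and 13.5%. There 21 of 32 members had an unadjusted p under 0.05, and DESeq2 called 16 lower and none higher. No share over all entries is given for the unadjusted and DESeq2 counts, so nothing is read from them. The calls of the fit rest on few counts, and members that entered it through Dgcr8_KO or Drosha_KO were high there by selection. For Dgcr8_KO the 17 calls became 9 and 7 without Dgcr8_KO replicate 1 or 2, and 4 and 5 without Dicer_KO replicate 1 or 2. For Drosha_KO the 16 became 7 and 6 without Dicer_KO replicate 1 or 2. Under DESeq2 size factors 3 members were called higher and 3 lower against Dgcr8_KO, and 2 higher and 6 lower against Drosha_KO. The whole table shifted too, from 76 entries higher and 150 lower to 115 and 74 against Dgcr8_KO, and from 65 and 146 to 99 and 90 against Drosha_KO.

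miR-6944-3p, at 0 of 82698 counts in Dicer_KO, was at least 12.3-fold lower than in WT, 36.3-fold lower than in Dgcr8_KO and 15.1-fold lower than in Drosha_KO, from the floor of 3 counts over the group. All of these were called (edgeR adjusted p = 0.0006, 9.85e-05 and 0.000779). miR-7068-3p kept 5 counts in Dicer_KO, and by its counts was 18.03-fold lower than in Dgcr8_KO (95% counting interval 7.69 to 55.7; edgeR adjusted p = 2.74e-05). Against WT its log2 fold change in Dicer_KO was -1.06 (SE 0.54, edgeR adjusted p = 0.116), and TMM factors brought that p to 0.0475. miR-7079-3p and miR-7046-3p, both at 0 in Dicer_KO, were at least 8.69-fold and 3.50-fold lower than in Dgcr8_KO. For most members the WT level lay below the Dicer_KO floor of 36.3 CPM, so a fall from WT to Dicer_KO was not detectable at this depth.

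A few members went the other way in Dicer_KO. Both Dicer_KO libraries exceeded both WT libraries in 4 of 165 members, beside 9.47% of 993 entries. They lay below them in 68, beside 63.3%, but 66 of the 68 had a WT mean under the Dicer_KO floor, so only the other 2, miR-6944-3p and miR-7068-3p, could show a fall. Against WT 5 of the 32 were called higher and 1 lower, beside 13.3% and 42.6% of the 481 entries, and without Dicer_KO replicate 1 only 3 calls were left. Under DESeq2 size factors the whole table changed from 64 higher and 205 lower to 84 and 106. The largest rise was that of miR-7003-3p, with 2.97 and 0.514 CPM in WT (7 and 1 counts), 111 and 110.1 in Dgcr8_KO, 152 and 74.4 in Drosha_KO, and 265 and 347 CPM in Dicer_KO (12 and 13 counts). Both Dicer_KO libraries lay above all others. It rose by 7.21 on the log2 scale against WT (SE 0.70, edgeR adjusted p = 6.47e-06). As miR-7003-3p reached the fit's limit of 38.54 CPM in Dgcr8_KO, Drosha_KO and Dicer_KO and in no WT library, that p-value is no support. The change from Dgcr8_KO to Dicer_KO was 1.46 (SE 0.55, edgeR adjusted p = 0.0491), and that call was lost in 9 of the alternatives, among them TMM factors, no filter and leaving out either Dicer_KO library. Its 25 counts were 40.3% of the 62 member counts in Dicer_KO. Without it the members held 37 counts there, against 435 at the share of Dgcr8_KO. The other strand of the hairpin, miR-7003-5p, had 34.5 and 22.0 CPM in Dgcr8_KO and no count in Dicer_KO.

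The other called rises in Dicer_KO rest on 3 to 7 counts. miR-6992-5p reached the fit's limit of 38.54 CPM in both Dicer_KO libraries and in no other library. The rest each needed 1 Dicer_KO library to enter the fit. All were thus tested through a group where they were high, and their p-values for these rises are no support. miR-6992-5p had 88.5 and 80.1 CPM in Dicer_KO (4 and 3 counts), against 2.12 and 6.17 in WT, and rose by 4.32 on the log2 scale (SE 0.79, edgeR adjusted p = 0.000756). It was also higher than in Dgcr8_KO, by 2.85 (edgeR adjusted p = 0.0117). That call did not hold when Dgcr8_KO replicate 2 or either Dicer_KO library was left out. miR-7054-3p, from an intron of Scaf1, had 44.2 and 26.7 CPM in Dicer_KO from 2 and 1 counts. Its ratio to WT by counts was 26.0 (95% counting interval 4.21 to 122), and the call (edgeR adjusted p = 0.0131) was lost without either Dicer_KO library. miR-6943-3p, from an intron of Grk6, a kinase gene of G protein-coupled receptors, had 4 and 1 counts in Dicer_KO and rose by 5.03 on the log2 scale (SE 1.16, edgeR adjusted p = 0.0035). It was not called without Dicer_KO replicate 1. miR-6967-5p had 4 and 0 counts (edgeR adjusted p = 0.0131). Without Dicer_KO replicate 1 it had no count left there, so the fitted log2 fold change of -3.02 shows no fall. Beyond these and miR-7068-3p, 13 members had a single count in Dicer_KO and 146 had none. The Dicer_KO share also depends on what else fills those libraries: with miR-3963, miR-6236, miR-6239, miR-6240 and miR-1983 left out of the totals it was 0.141%.

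The comparison of Ago12_KO with WT addresses which members need Ago1 and Ago2. The 2 most abundant members of WT fell. miR-6944-3p had 0 of 578719 counts in Ago12_KO, where 257 would stand at its WT share, and was at least 85.8-fold lower than in WT (edgeR adjusted p = 3.84e-05). miR-7068-3p had 3 counts, where 73.0 would stand at its WT share, and by its counts was 23.9-fold lower (95% counting interval 8.15 to 116; edgeR adjusted p = 4.3e-05). In contrast, the other 163 members had 64 counts, where 96.4 would stand at their WT share. The fit called 2 of 32 members lower, these same entries, and 1 higher, beside 25.8% and 28.7% of the 481 entries. With TMM factors 6 were lower and 1 higher, and the whole table changed from 138 higher and 124 lower to 109 and 179. Both Ago12_KO libraries lay below both WT libraries in 56 of 165 members, beside 39.6% of 993 entries, and above them in 3, beside 25.3%. Of the 56, 54 had no count in Ago12_KO and 49 had a WT mean under its floor of 5.18 CPM, so most of these are no measured fall. Of the 10 members whose WT mean reached the floor, 7 were lower. They were taken for a high WT level, and the same share over all entries was not computed, so nothing is read from this count.

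The member called higher in Ago12_KO was miR-7054-3p, with 0.424 and 2.57 CPM in WT (1 and 5 counts) and 11.5 and 30.5 CPM in Ago12_KO (4 and 7 counts). It rose by 3.60 on the log2 scale (SE 0.80, edgeR adjusted p = 0.00255), and without Ago12_KO replicate 2 the edgeR adjusted p was 0.0547. It had 24.2 and 19.6 CPM in Dgcr8_KO and 50.6 and 24.8 in Drosha_KO, so it was above both WT libraries in every knockout library. miR-6992-5p had 8.59 and 8.72 CPM in Ago12_KO, above both WT values, and was not called (edgeR adjusted p = 0.252). These entries held 11 and 5 of the 67 member counts of Ago12_KO. miR-7046-3p had 5.73 and 8.72 CPM in Ago12_KO against 6.79 and 5.66 in WT, ranges that overlap. No count was seen in Ago12_KO for 133 members, and 18 had 1 count.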

How the data were processed

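The values deposited are whole-number counts for each mature miRNA entry in 10 libraries, not normalized, in a single table. Alignment with Bowtie and the build mm10 come from the submitters' processing notes. Not given in the sources used here are its version, how reads were counted, which miRBase release was used and what was done with multiply mapping reads.

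From these counts, members were summed per library, shares were given of the library total with 95% Clopper-Pearson intervals (scipy 1.17.1), and CPM were computed from the same totals, 37476 to 2357868 counts. All 1907 entries and 5 groups were fitted in edgeR 4.0.16 (quasi-likelihood, R 4.3.3, 5 residual degrees of freedom) with column totals as library sizes, since other factors take most entries as stable. filterByExpr by group (minimum count 10, minimum total 15) kept 481 entries. An adjusted p under 0.05 (Benjamini-Hochberg) made a call. Each standard error was derived from the F statistic. Where a group had no count, a bound from 3 counts over the group is given, and for some groups with 1 to 5 counts, the ratio of counts with an exact interval. Hairpins and mature strands came from RefSeq (GRCm38.p6) and introns from GENCODE M21. The fit was tested on simulated data.

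The rule named each member in the fit or with a summed count of at least 30, 34 in all. Which of them are printed with full values was decided after the values were seen. The members, lists and tests were chosen with earlier results of these data known. Alternatives were TMM factors, DESeq2 size factors, no filter, a minimum mean of 10 CPM, DESeq2 1.42.0 with column totals, a block for replicate number, leaving out each library, and other denominators and members for shares.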

Additional observations from a re-analysis of the deposited data

How the results depend on the processing

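The direction of the pooled shares against WT held for Dgcr8_KO, Drosha_KO and Ago12_KO in all alternatives, and the sizes moved. Without miR-6944-3p the WT share was 0.0293%, that of Dgcr8_KO 0.405% and that of Drosha_KO 0.558%. Members with a summed count of at least 10 took 0.498% in Dgcr8_KO and 0.533% in Drosha_KO. With 5 abundant entries left out of the totals the shares were 0.564% in Dgcr8_KO, 0.641% in Drosha_KO and 0.141% in Dicer_KO. Leaving out 1 library gave 0.0655% to 0.0820% in WT, 0.533% to 0.541% in Dgcr8_KO, 0.598% to 0.628% in Drosha_KO, 0.0587% to 0.0885% in Dicer_KO and 0.00830% to 0.0166% in Ago12_KO.

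Members called moved from 31 to 97 (Dgcr8_KO against WT) and from 26 to 56 (Drosha_KO against WT) with no filter, which tests more entries. For Ago12_KO against WT 7 were called with TMM factors and 6 with DESeq2 size factors, instead of 3. With DESeq2 size factors 6 were called for Dicer_KO against Dgcr8_KO instead of 17, and 8 against Drosha_KO instead of 16, and the cause was not tested. When 1 library was left out, members called ranged from 29 to 41 for Dgcr8_KO, 24 to 33 for Drosha_KO, 3 to 6 for Dicer_KO and 3 to 4 for Ago12_KO against WT, from 4 to 18 for Dicer_KO against Dgcr8_KO and from 6 to 14 against Drosha_KO. The entries called over the whole table then ranged from 286 to 403, 230 to 299, 186 to 279, 201 to 309, 160 to 243 and 149 to 198 in the same order.

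Of the called values 2 turned their sign, both with 1 library left out. miR-6967-5p in Dicer_KO against WT turned to -3.02 without Dicer_KO replicate 1 (5.79 without replicate 2), and miR-7075-3p in Drosha_KO against WT to -3.38 without Drosha_KO replicate 1 (4.62 without replicate 2), where each lost its last counts. With no count left in the knockout and a WT mean under its floor, these fitted values show no fall. Of 3066 recomputed values of single members, 2793 kept their sign and their side of the threshold, 179 lost a call and 39 gained one. A further 53 were not called in either fit and turned their sign.

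Replicate numbers did not pair the libraries: the deviations of same-numbered libraries correlated at -0.0648 to 0.136. With the replicate number as a block, members called were 31 for Dgcr8_KO, 25 for Drosha_KO, 6 for Dicer_KO and 3 for Ago12_KO against WT, and 13 and 15 for Dicer_KO against Dgcr8_KO and Drosha_KO, beside 339, 270, 265, 255, 223 and 199 of all 481 entries in the same order. The median over all entries against WT was -0.71, -1.47, -3.06 and -0.66 with TMM factors, and -0.44, -0.75, -1.67 and -0.24 with DESeq2 size factors, in the order Dgcr8_KO, Drosha_KO, Dicer_KO and Ago12_KO. The depth of Drosha_KO and Dicer_KO, with floors of 37.6 and 36.3 CPM, limits all statements on single rare members there.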

Other observations

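The counts leaned to the 3p strand, the one next to the 3' splice site. Of 32 hairpins with at least 30 counts over both arms, 25 had more 3p and 7 more 5p counts. miR-6944 had 2842 counts of 3p and 3 of 5p, and miR-7068 had 1403 and 8. miR-7083, from an intron of Dock6, was nearer to balance, with 105 counts of 3p and 65 of 5p. Among the 7 with more 5p, miR-6960, from an intron of Troap, had 70 counts of 5p and none of 3p, and miR-6896, from an intron of Dst, had 68 of 5p and 1 of 3p. miR-6992 had 39 of 5p and 3 of 3p, miR-7059 36 and 2, miR-6997 31 and 7, miR-6994 30 and 10, and miR-7063 21 and 10. Without miR-6944-3p and miR-7068-3p, 3p strands took 75.0% of the member counts in both WT and Ago12_KO, 74.7% of those of Dgcr8_KO and 71.3% of those of Drosha_KO. The Dicer_KO share was 68.4%, from 57 counts.

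A set of 6 seeds was shared by 13 members. Beside CACCCUG of miR-7018-3p and miR-7068-3p, these were GGGCUGA in miR-6911-5p, miR-7028-5p and miR-7079-5p, AGGAUGA in miR-6960-5p and miR-7093-5p, CUCACUG in miR-6992-3p and miR-7015-3p, CUGAGCU in miR-6927-3p and miR-6945-3p, and GUUCUUU in miR-6935-3p and miR-7092-3p. Most of these strands were rare. miR-6927-3p had 1 and 1 counts in WT and 3 and 10 in Dgcr8_KO, and miR-6945-3p had 2 and 1 in WT and 4 and 12 in Dgcr8_KO.

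Some rows are uncertain as counts of a single hairpin. miR-6967-3p and miR-6967-5p have 2 loci each, and all their counts are multiples of 2, as are those of miR-7048-3p, miR-7068-5p and miR-7075-3p. The rows of miR-6944-5p and miR-6951-5p hold the same counts in every library.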
